A study of Mus musculus with 20 samples.

Results

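The genes of proteins that accompany amyloid fibrils in tissue were followed in the heart apex of mice with immunoglobulin light chain amyloidosis. They were the 10 rows of the deposited gene table, out of 25308, whose names are Apoe, Apcs, Apoa4, Clu, Vtn, Hspg2, App, Saa1, Saa2 and Saa3. Amyloid deposits of many fibril types share a small set of companions, though not each of them is found in every deposit, and proteomic typing of amyloid uses several of them as a signature. Serum amyloid P component, the product of Apcs, binds fibrils directly, apolipoproteins E and A-IV and the chaperone clusterin are recovered with them, and perlecan brings the heparan sulfate chains on which fibrils assemble. Many of these proteins are made chiefly in the liver and reach a deposit through the blood, so a transcript count in the heart reads only local production and any liver RNA in the sample.

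RNA of the apex was sequenced from 20 mice in 3 groups. All mice shared the DH background, in which B-lineage cells make no immunoglobulin heavy chains and are sustained by an LMP2A transgene. The 9 AL mice were λS-DH animals, with the human λS light chain gene inserted at the Igκ locus, that carried Congo red positive deposits after an intravenous injection of recombinant λS variable domain as fibril seeds or in soluble form. The 4 LS mice were λS-DH animals that were not induced and had no deposits, and the 7 Ctrl mice were age-matched DH animals without the λS gene. Mice were adult, older than 3 months, and of both sexes. The inserted gene is expressed by cells of the B lineage, which secrete the chain into the blood.

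The 15 mice of a first sequencing run and the 5 mice of a second run (AL8, AL9 and Ctrl5 to Ctrl7) had total counts between 7867642 and 62668146, and the second run was the shallower. The detection floor, 3 counts, stood at 0.0474 to 0.356 CPM and takes only counting error into account. Levels are given as CPM, read counts scaled to a common library size by TMM. Differences are log2 fold changes (log2FC) from a model of all genes with group and run as terms (edgeR quasi-likelihood test), with p-values adjusted over the 14477 genes tested (FDR). Calls required both an FDR under 0.05 and a log2FC beyond 0.58 in either direction (beyond 1 for AL against LS and Ctrl merged). Igkc, the constant region gene of the locus that received the insertion, had 0 to 6 counts in the AL and LS mice and 0 to 274 in the Ctrl mice. The summed level of 10 cardiomyocyte genes lay between 49543 and 81135 CPM in all mice. AL9 stood apart in several marker lists and AL7 in Saa3, and results that rest on them are given with and without them. In bulk tissue, fewer cells of a type and less RNA per cell cannot be told apart.

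Albumin was read first, because its transcript marks liver RNA in a heart sample. Alb was at 0.0861 to 21.7 CPM in the AL mice, with a median of 0.711. In the LS mice it was at 113, 2.95, 93.4 and 8.73 CPM, and in the Ctrl mice it ran from 0.0769 to 215 CPM with a median of 21.03. It exceeded 50 CPM in 5 mice, LS1, LS3, Ctrl1, Ctrl3 and Ctrl4, and in no AL mouse. Alb was lower in AL than in Ctrl (log2FC -4.88, SE 1.10, FDR 0.00377) and than in LS (log2FC -3.81, FDR 0.0162). Of 31 tested genes of a list of 32 liver genes, 30 were called lower in AL against Ctrl and 24 against LS, with medians of -4.14 and -3.49 on the log2 scale beside 0.01 over all tested genes in both comparisons. Their summed level was 10.8 to 76.3 CPM in AL, 26.7 to 311 CPM in LS and 11.6 to 472 CPM in Ctrl, and no liver gene was called higher. In the first run Alb averaged 119.6 CPM in Ctrl and 3.79 CPM in AL. In the second run it averaged 0.0916 CPM in Ctrl, from 1 count in each mouse, and 0.399 CPM in AL. Members that the liver makes are given below with their values under the liver covariate or beside Alb.

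Of the members, 5 were read well above the floor in every mouse, and the other 5 were at 0 in at least 1 mouse. Per kilobase of exon, the mean level over the 20 mice was 123 CPM for Clu, 79.2 for Apoe, 24.7 for Hspg2, 11.2 for App and 7.09 for Vtn. On that scale Clu lay above 98.3% of the 14282 tested genes with a length, Apoe above 97.3%, Hspg2 above 92.2%, App above 82.9% and Vtn above 74.8%. Saa3 and Apoa4 followed at 0.658 and 0.630 CPM per kilobase, then Apcs at 0.103, Saa1 at 0.0483 and Saa2 at 0.0223. Lengths were the union of all annotated exons of a gene, which can be longer than a single transcript. For Saa1 this was 2478 bases, while its coding transcripts held 579 distinct stretches of 31 bases. The order and the percentages depend on this choice of length. In the Ctrl mice, Clu (93.4 to 115 CPM per kilobase) lay above Apoe (60.3 to 89.2), which lay above Hspg2 (21.5 to 30.7), with no overlap. The ranges of App (8.94 to 13.7) and Vtn (4.80 to 10.4) overlapped there, while within each mouse App lay above Vtn in 7 of 7 Ctrl, 3 of 4 LS and 9 of 9 AL mice. In the AL mice the highest Apoe value, 243 CPM per kilobase in AL9, reached into the range of Clu, which began at 106.

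**Figure D1:**
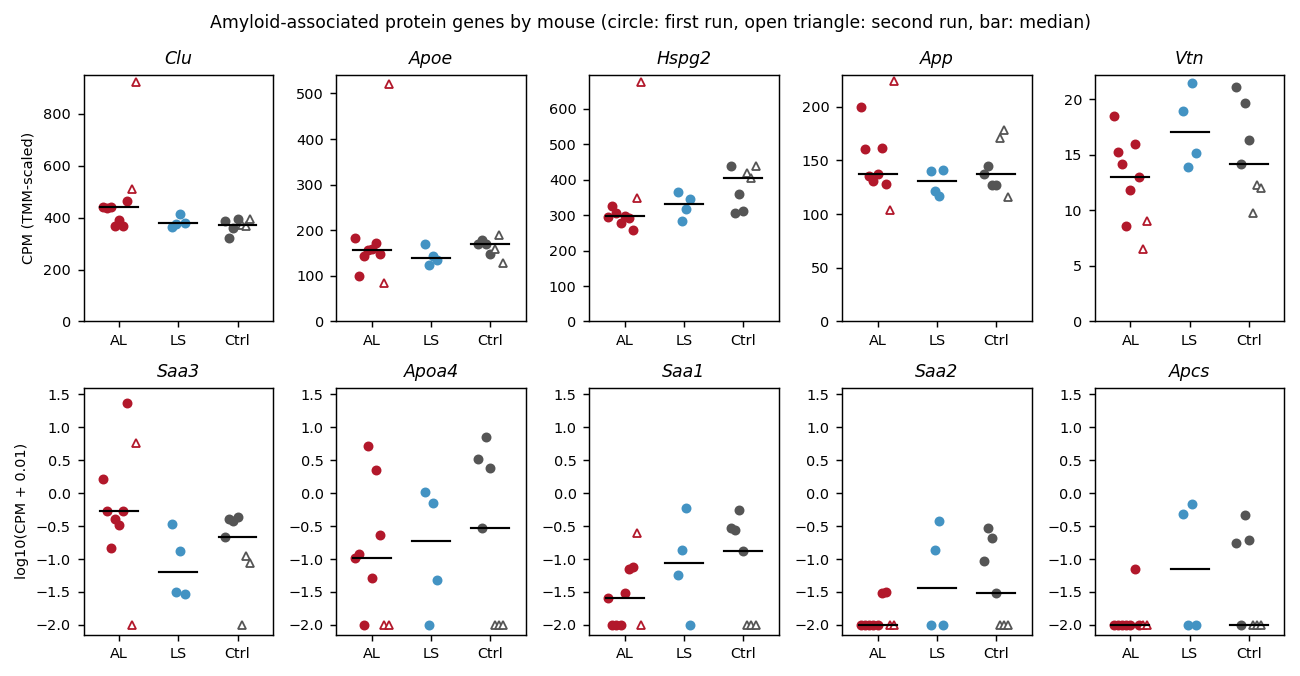
CPM of the 10 members in each mouse by group (upper row, linear axis from 0) or log10(CPM + 0.01) (lower row), with filled circles for the first sequencing run, open triangles for the second and a bar at the group median. AL9 is the highest mouse for Clu, Apoe, Hspg2 and App, AL7 for Saa3, and Apcs was at 0 in 8 of 9 AL mice.

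Of the 10 members, 8 passed the filter on low counts and were tested. Apcs and Saa2 did not pass. In AL against Ctrl, 2 of the 8 were called, Saa3 higher and Saa1 lower, beside 7.81% of all tested genes. In AL against LS, 1 was called, Saa3 higher, beside 8.9% of all genes. In LS against Ctrl edgeR called 0 of 8, beside 0.0207% of all genes, and 0 had an unadjusted p under 0.05. DESeq2 called 0 of 8 in that comparison too. Against LS and Ctrl merged, 2 were called, again Saa3 and Saa1, beside 4.88%. These comparisons share their AL mice, and the merged one shares its controls with the others, so their values stand side by side and do not add to each other.

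**Figure D2:**
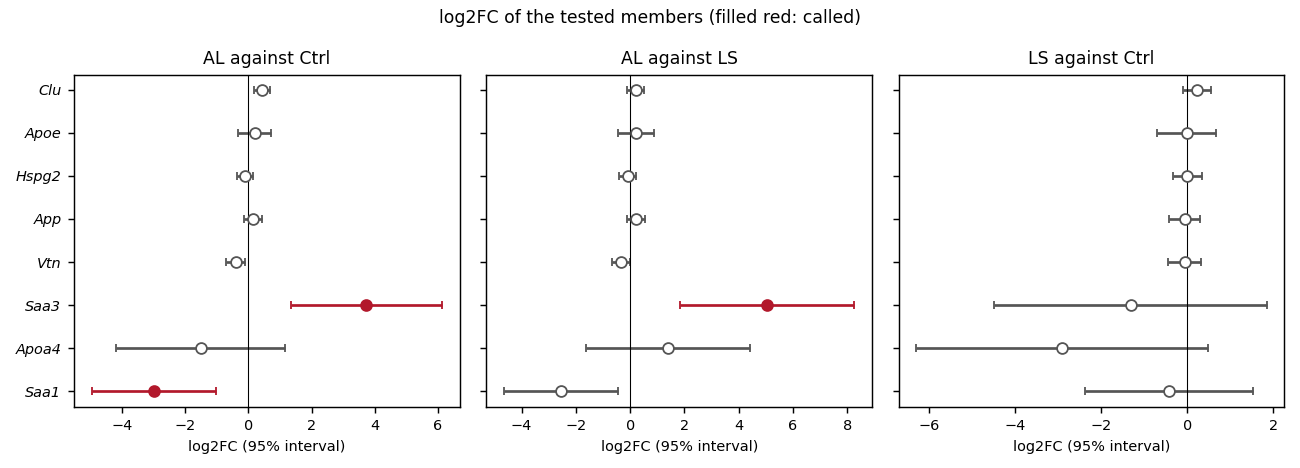
log2FC of the 8 tested members with its 95% interval, in 1 panel for each pair of the 3 groups. Filled red points were called: Saa3 (3.73) and Saa1 (-2.99) against Ctrl, Saa3 (5.05) against LS, and none in LS against Ctrl.

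The serum amyloid A genes encode acute-phase apolipoproteins that form fibrils of their own in another amyloidosis. In mice the liver secretes Saa1 and Saa2 proteins during inflammation, while Saa3 is transcribed outside the liver, mostly in macrophages and fat. The 3 genes are close neighbours on chromosome 7 of GRCm38: Saa3 at chr7:46711998-46715700 on the minus strand, Saa1 at chr7:46740497-46742980 on the minus strand and Saa2 at chr7:46751790-46754313 on the plus strand. The start of each coding sequence is shown to make plain how alike the genes are, since Saa1 and Saa2 share short stretches. Capitals mark bases that differ from Saa1 or, in Saa1, from Saa2 (bases 1 to 150, 5′ to 3′, longest open reading frame of the GENCODE transcript).
Saa1: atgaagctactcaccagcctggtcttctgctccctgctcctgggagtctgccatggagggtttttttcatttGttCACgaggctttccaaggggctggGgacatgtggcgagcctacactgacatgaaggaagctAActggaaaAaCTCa
Saa2: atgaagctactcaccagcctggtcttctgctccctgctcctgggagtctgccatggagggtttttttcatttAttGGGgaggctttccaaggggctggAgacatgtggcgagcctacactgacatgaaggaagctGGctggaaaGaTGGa
Saa3: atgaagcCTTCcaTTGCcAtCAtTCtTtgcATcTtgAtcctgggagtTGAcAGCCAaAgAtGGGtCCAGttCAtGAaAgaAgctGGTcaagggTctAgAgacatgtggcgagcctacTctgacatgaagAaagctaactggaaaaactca
Over all 369 coding bases, Saa2 was 95.1% and Saa3 73.2% identical to Saa1. Of the 31-base stretches of Saa1, 26.8% were also in Saa2 and 4.84% in Saa3, while no stretch of 150 bases was shared. The split between Saa1 and Saa2 is therefore uncertain, and their sum is given too.

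The 200 bases upstream of each start are shown because Saa1 and Saa2 carry near-identical letters there while Saa3 does not (RefSeq starts on GRCm38.p6, sequence on the strand of the gene). Capitals mark matches on either strand to TTNNGNAA, a form of the C/EBP motif, and to a form of the NF-κB motif (GGG, any 5 bases, CC), and the long run of capitals in Saa1 is 1 match to each, end to end without overlap.
Saa1, chr7:46742981-46743180: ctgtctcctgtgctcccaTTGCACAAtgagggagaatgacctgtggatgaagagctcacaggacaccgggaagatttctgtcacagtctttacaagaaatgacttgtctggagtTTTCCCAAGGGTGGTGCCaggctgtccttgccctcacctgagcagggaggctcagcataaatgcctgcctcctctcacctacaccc
Saa2, chr7:46751633-46751832: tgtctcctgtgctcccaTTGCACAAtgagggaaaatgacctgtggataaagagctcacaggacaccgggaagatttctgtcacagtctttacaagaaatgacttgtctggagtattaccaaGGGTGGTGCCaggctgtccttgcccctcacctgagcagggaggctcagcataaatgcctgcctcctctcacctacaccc
Saa3, chr7:46715677-46715876: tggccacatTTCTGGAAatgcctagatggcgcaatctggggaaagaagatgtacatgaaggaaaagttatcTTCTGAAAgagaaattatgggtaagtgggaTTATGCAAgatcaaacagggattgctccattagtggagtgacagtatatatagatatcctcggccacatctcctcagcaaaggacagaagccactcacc
The first motif was found in 29.99% and the second in 41.4% of 32851 promoters of the same length. A match is a description of letters and no evidence of a bound factor.

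Saa3 was called higher in AL than in Ctrl and than in LS. It was at 1.64, 0.525, 0.135, 0.393, 0.314, 0.523, 23.0, 0 and 5.68 CPM in AL1 to AL9. In the LS mice it was at 0.331, 0.0210, 0.122 and 0.0193 CPM, and in the Ctrl mice it ran from 0 to 0.427 CPM with a median of 0.207. The groups overlapped: 5 of 9 AL mice lay above every Ctrl mouse and 6 above every LS mouse. The log2FC was 3.73 against Ctrl (SE 1.15, FDR 0.0226) and 5.05 against LS (SE 1.54, FDR 0.0236). LS and Ctrl did not differ detectably (log2FC -1.32, 95% interval -4.49 to 1.85). AL7 alone had 1040 of the Saa3 counts, against 104 in the next AL mouse, and without it the values fell to 1.75 against Ctrl (FDR 0.122) and 2.71 against LS (FDR 0.0829), neither past the threshold. Leaving out LS2, LS3 or LS4 also ended the call against LS (FDR 0.0713, 0.0619 and 0.071). Against LS and Ctrl merged, Saa3 stayed called without AL7 (log2FC 2.02, FDR 0.0369). Without AL9 the value against Ctrl was 3.27 (FDR 0.0693), and in the first run alone 3.41 (FDR 0.0837). Without the 5 mice above 50 CPM of Alb it was 3.94 (FDR 0.182), a fit with fewer controls. With the level of Xist, which marks female mice, as a covariate it was 2.12 (FDR 0.195).

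The genes whose level followed Saa3 most closely over the 20 mice were Prg4, which encodes the lubricant lubricin (Pearson r 0.917), Alox15, a lipoxygenase of resident macrophages and eosinophils (r 0.888), and Tbc1d20 (r 0.874). AL7 carried 31.98 CPM of Alox15 beside 4.04 CPM in AL9 and 2.21 CPM in AL1. Prg4 was at 41.7 CPM in AL9 and 36.7 CPM in AL7, against 4.02 to 17.7 CPM in all other mice. These points are mice that share a few high libraries, so the correlations are descriptions. The summed level of 15 macrophage genes was 676 CPM in AL7 and 930 CPM in AL9, with a median of 502 CPM in AL, 459 CPM in LS and 371 CPM in Ctrl, and its part in Saa3 was not tested.

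Saa1 was called lower in AL than in Ctrl, and lay below 1 CPM in every mouse. It had 0 to 3 counts in every AL mouse, 2, 6, 29 and 0 counts in LS1 to LS4, and 0 to 22 counts in the Ctrl mice. As levels these were at most 0.237 CPM in AL (AL8, from 2 counts), 0.591 CPM in LS and 0.548 CPM in Ctrl. The log2FC was -2.99 against Ctrl (SE 0.945, FDR 0.0261) and -2.56 against LS (SE 1.00, FDR 0.0707), the latter not past the threshold. Saa2 was below the filter, with 2 counts in all AL mice, 24 in LS and 28 in Ctrl. Per total count this was 0.0436 of the Ctrl level (95% interval 0.00504 to 0.173) and 0.0470 of the LS level (0.00539 to 0.189), intervals that cover counting error only. Summed, Saa1 and Saa2 gave a log2FC of -3.31 against Ctrl (FDR 0.0197) and -3.01 against LS (FDR 0.0415, or 0.0569 without the filter). For Saa1 alone, DESeq2 gave an FDR of 0.0716 against Ctrl and ComBat-seq 0.0994.

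Liver transcripts moved with Saa1, and their part in its difference was not tested. The genes closest to Saa1 over the mice were the fibrinogen chain genes Fgg (r 0.800) and Fga (r 0.793) and the carboxylesterase gene Ces2a (r 0.789). With the mean log2 CPM of the liver list as a covariate, the Saa1 log2FC against Ctrl was -0.80 (FDR 0.669). Without the 5 mice above 50 CPM of Alb it was -2.22 (FDR 0.249). The ratio of Saa1 and Saa2 to Alb was not constant: LS2 had 12 summed counts beside 140 of Alb, and LS1 had 2 beside 4801. Leaving out Ctrl3, the highest Ctrl mouse for Saa1 and Alb, also took the Saa1 call from AL against Ctrl (log2FC -2.50, FDR 0.0791).

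Apcs, at chr1:172893961-172895041 on the minus strand, encodes serum amyloid P component, the pentraxin of the liver that gives radiologists a tracer for amyloid. Apcs was read in only 6 of 20 mice. These were AL6 with 3 counts, LS1 with 20, LS3 with 33, Ctrl1 with 8, Ctrl3 with 18 and Ctrl4 with 9, and the 5 mice above 50 CPM of Alb were all among them. All AL mice together had 3 counts, 0.0523 of the Ctrl level per total count (95% interval 0.0103 to 0.166) and 0.0319 of the LS level (0.00638 to 0.0986). These intervals pool the mice of a group and cover counting error only, not the spread between mice. In these 6 mice there were 0.121 to 0.720 Apcs counts for each 100 Alb counts. Ctrl2, with 1106 Alb counts, had none.

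Apoa4, at chr9:46240696-46243459 on the plus strand, encodes apolipoprotein A-IV of chylomicrons, made by the small intestine and, in mice, by the liver. It was at 5.28 CPM in AL4, 2.25 CPM in AL6 and 0 to 0.221 CPM in the other 7 AL mice. The LS mice had 1.02, 0, 0.693 and 0.0385 CPM, and the Ctrl mice ran from 0 to 7.13 CPM with a median of 0.285. No difference passed the test (log2FC -1.51, 95% interval -4.18 to 1.16, against Ctrl, and 1.40, interval -1.63 to 4.43, against LS). Without the 5 mice above 50 CPM of Alb the sign against Ctrl turned (log2FC 1.97, FDR 0.688), as it did with the liver covariate (3.26, FDR 0.443).

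The ratio of Apoa4 to Alb varied, and AL4 was farthest apart. It had 282 Apoa4 counts beside 5 of Alb, while the 5 mice with the most Alb had 0.742 to 3.32 Apoa4 counts for each 100 of Alb. AL6, with 112 Apoa4 counts, had 10.4 for each 100, and AL1, AL2, AL5 and AL7 had 8.06 to 11.8, from 2 to 10 Apoa4 counts. AL4 also had 287 counts of Fabp2, the intestinal fatty acid binding protein, 247 of the brush border disaccharidase Sis and 42 of the intestinal alkaline phosphatase Alpi. Sis had at most 1 count in any other mouse. Over 8 enterocyte genes chosen after the values were seen, AL4 had 1138 counts and every other mouse at most 56. The genes nearest to Apoa4 over the mice were Cdhr5 (r 0.920), Anks4b (r 0.914) and Fabp2 (r 0.885), the first 2 being genes of the brush border. Cdhr5 and Anks4b lay below 1 CPM in every mouse. Anks4b was not highest in AL4, at 0.262 CPM there beside 0.353 CPM in Ctrl1 and 0.346 CPM in Ctrl4. Without AL4, Apoa4 had a log2FC of -2.85 against Ctrl (FDR 0.107) and 0.06 against LS.

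Vtn, at chr11:78499091-78502324 on the plus strand, encodes vitronectin, an adhesive plasma protein made by hepatocytes that is deposited in tissue with amyloid and complement. It was at 18.5, 15.3, 14.2, 8.60, 11.8, 15.998, 13.1, 6.52 and 9.04 CPM in AL1 to AL9. The LS mice had 18.9, 13.9, 21.5 and 15.2 CPM, and the Ctrl mice ran from 9.74 to 21.1 CPM with a median of 14.2. No AL mouse lay above all Ctrl mice. Vtn had a log2FC of -0.40 against Ctrl (SE 0.145, FDR 0.0458), past the FDR but not the fold threshold, and -0.34 against LS (FDR 0.143). The second run was lower in both groups: 6.52 to 9.04 CPM in its AL mice and 9.74 to 12.3 CPM in its Ctrl mice. Vtn was nearest to the liver genes Ahsg (r 0.809) and Orm1 (r 0.771), followed closely by Kctd3 (r 0.767), which is not in the liver list. With the liver covariate its log2FC against Ctrl was -0.18 (FDR 0.554). Unlike Apcs and Saa2, Vtn was read in every mouse: Ctrl5 to Ctrl7, each with 1 Alb count, still had 99 to 157 Vtn counts.

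**Figure D3:**
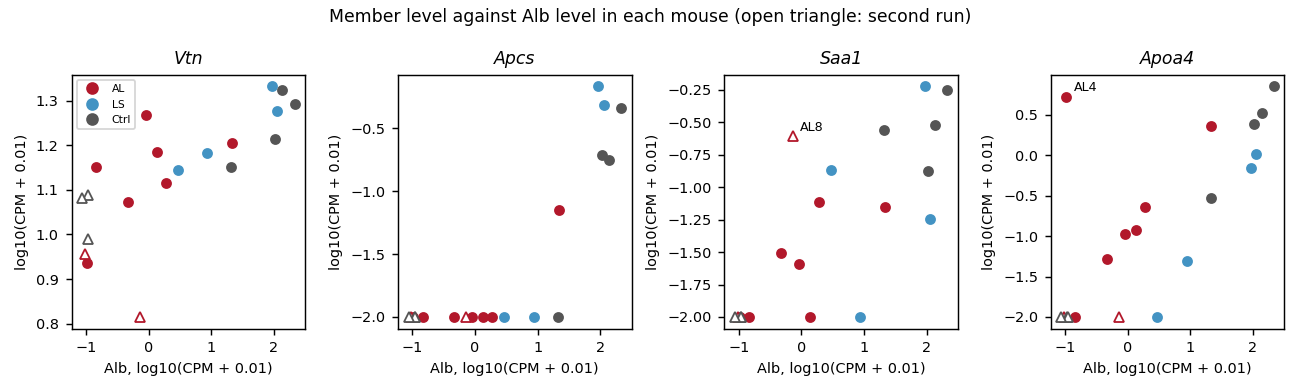
Level of Vtn, Apcs, Saa1 and Apoa4 against that of Alb in each of the 20 mice, both as log10(CPM + 0.01), coloured by group, with open triangles for the second run. Apcs is above 0 only in mice at or above 21.7 CPM of Alb, and AL4 has 5.28 CPM of Apoa4 with 0.0937 CPM of Alb.

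Clu, at chr14:65968483-65981547 on the plus strand, encodes clusterin, a secreted chaperone that holds misfolded proteins in solution. It was the highest member in the heart. Clu was at 442, 436, 440, 366, 392, 367, 463, 511 and 921 CPM in AL1 to AL9. The LS mice had 364, 377, 414 and 378 CPM, and the Ctrl mice ran from 321 to 395 CPM with a median of 372. Of the 9 AL mice, 6 lay above every Ctrl mouse and the other 3 lay within their range. The log2FC was 0.42 against Ctrl (SE 0.121, FDR 0.0161), past the FDR but not the fold threshold, and 0.21 against LS (SE 0.148, FDR 0.326). Without AL9 it was 0.25 against Ctrl (FDR 0.0157). Within the first run it was 0.18 (FDR 0.0956) and within the second 0.98 (FDR 0.26). With the liver covariate it was 0.60 (FDR 0.0146) and without the 5 mice above 50 CPM of Alb 0.71 (FDR 0.0257), both past the fold threshold. The coefficient of variation of Clu was 35.5% in AL, 5.65% in LS and 6.91% in Ctrl. Clu was nearest to Dnlz (r 0.907, or 0.799 without AL9), Cd44 (r 0.898, or 0.773) and Mical3 (r 0.893, or 0.789).

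Apoe, at chr7:19696109-19699188 on the minus strand, encodes apolipoprotein E, a lipid carrier of liver, macrophages and glia that clears remnant lipoproteins. It ran from 84.5 CPM in AL8 to 520 CPM in AL9, with a median of 157 CPM. The LS mice had 169, 123, 144 and 136 CPM, and the Ctrl mice ran from 129 to 191 CPM with a median of 170. AL9 stood far above, and the other 8 AL mice lay at or below 183 CPM. The log2FC was 0.20 against Ctrl (SE 0.252, 95% interval -0.33 to 0.73) and 0.22 against LS (interval -0.43 to 0.87). Without AL9 the sign turned, to -0.29 against Ctrl (FDR 0.145). With the liver covariate it was 0.52 (FDR 0.283), and without the 5 mice above 50 CPM of Alb 0.42 (FDR 0.4931). Apoe was nearest to the complement gene C1qc (r 0.925 over 20 mice, 0.812 without AL9), Aldh1a3 (r 0.909) and the elastic fibre gene Loxl1 (r 0.907). C1qc was at 82.6 CPM in AL9 and 13.9 CPM in AL8, the highest and the lowest of the 20 mice.

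Hspg2, at chr4:137468769-137570630 on the plus strand, encodes perlecan, the heparan sulfate proteoglycan of basement membranes. It ran from 257 CPM in AL7 to 675 CPM in AL9, with a median of 299 CPM. The LS mice had 365, 284, 318 and 344 CPM, and the Ctrl mice ran from 307 to 439 CPM with a median of 404. The log2FC was -0.10 against Ctrl (SE 0.122, 95% interval -0.35 to 0.16) and -0.09 against LS (interval -0.40 to 0.22). Without AL9 it was -0.26 against Ctrl (SE 0.0799, FDR 0.0235), past the FDR but not the fold threshold. In the first run, where all 7 AL mice lay at or below 327 CPM, it was -0.27 (FDR 0.0545). Hspg2 was nearest to Sbf1 (r 0.903), Samd4b (r 0.882) and Plec (r 0.863), the last encoding the linker protein plectin.

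App, at chr16:84949685-85173766 on the minus strand, encodes the precursor of the amyloid beta peptide, a membrane protein of most tissues. It was at 104 CPM in AL8, 224 CPM in AL9 and 128 to 200 CPM in the other AL mice. The LS mice had 140, 122, 117 and 141 CPM, and the Ctrl mice ran from 116 to 178 CPM with a median of 137. The ranges of the 3 groups overlapped. The log2FC was 0.14 against Ctrl (SE 0.135, 95% interval -0.14 to 0.42) and 0.20 against LS (interval -0.13 to 0.54), neither past the test. App was nearest to Tnfrsf26 (r 0.921), Fbln2 (r 0.897) and Sh3d19 (r 0.890).

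AL9 was the highest mouse for Clu, Apoe, Hspg2 and App, and the summed level of the members was 2354 CPM there against 920 to 1158 CPM in the LS and Ctrl mice. In AL9 the sums of several marker lists were the highest of the 20 mice: fibroblasts (5242 CPM in AL9, median 2569 CPM in AL), mesothelium (385 CPM, median 94.7 CPM), macrophages (930 CPM, median 502 CPM), pericytes and smooth muscle (3625 CPM, at most 2920 CPM elsewhere) and neutrophils (36.1 CPM, 35.0 CPM in AL8). The endothelial and adipocyte sums were the lowest there, at 700 and 14.1 CPM. Cardiomyocyte genes summed to 64208 CPM in AL9, within the range of the other mice. AL8, of the same run, had the lowest fibroblast (758 CPM) and macrophage (238 CPM) sums. The part of these cell types in the values of AL9 was not tested.

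**Figure D4:**
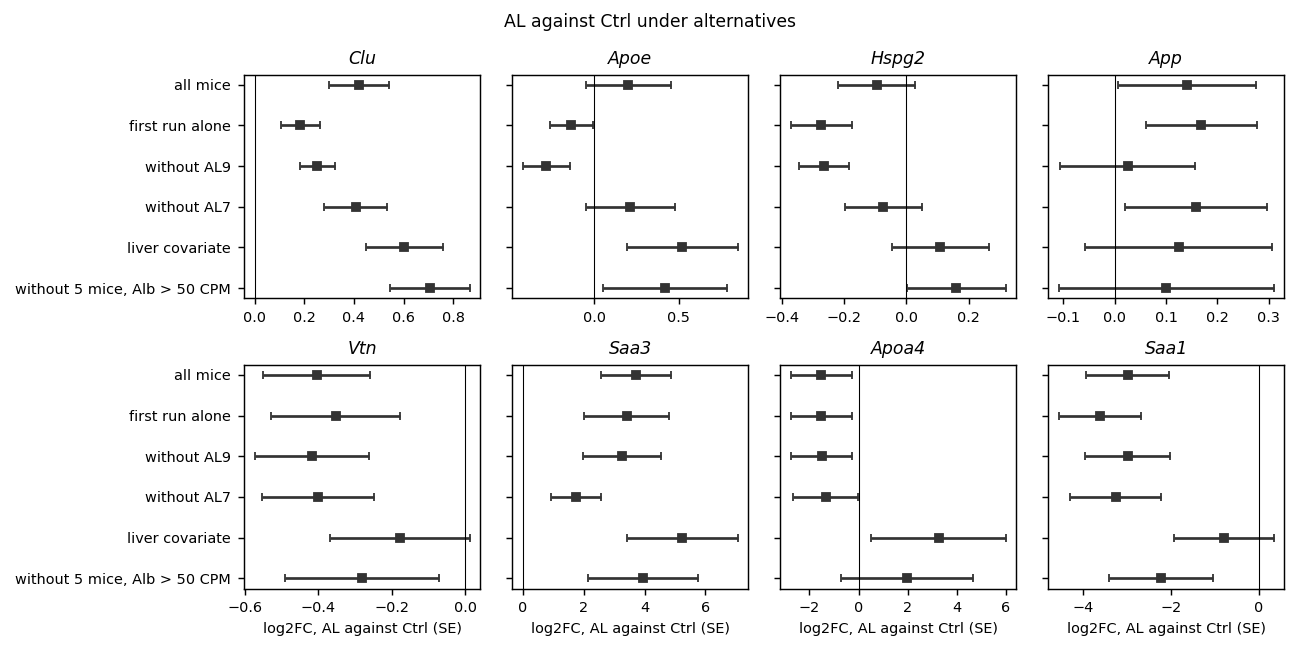
log2FC in AL against Ctrl of each tested member with its SE over all mice, in the first run alone, without AL9, without AL7, with the liver covariate and without the 5 mice above 50 CPM of Alb; each panel has its own scale. Apoe turns from 0.20 to -0.29 without AL9, Saa3 falls from 3.73 to 1.75 without AL7 and Saa1 moves from -2.99 to -0.80 with the liver covariate.

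Around Apoe, the genes of lipid handling and its receptors were divided. Of 17 tested, 3 were called higher and 3 lower in AL against Ctrl. Beside the counts of this list and those below, 4.1% of all tested genes were called higher against Ctrl and 3.71% lower. Against LS these shares were 5.86% and 3.03%. The receptor gene Lrp8 (log2FC 1.47, FDR 0.0288), the cholesterol exporter Abcg1 (0.70) and the oxysterol receptor Nr1h3 (0.64) were higher. The apolipoprotein genes Apoc1 (-4.09) and Apoc4 (-3.96) and the sorting receptor Sorl1 (-0.74) were lower. Apoc1 turned to 0.29 with the liver covariate. Lrp8 lost its call without AL9, Ctrl2, Ctrl3 or Ctrl5 (FDR up to 0.112), and Sorl1 without any of 9 single mice (FDR up to 0.111). Against LS, 1 gene was called higher, Abcg1 (0.85), and Apoc1 and Apoc4 lower, Apoc1 not without LS1 or LS3 (FDR up to 0.0644). Of 17 genes of the App family and its secretases, 1 was called against Ctrl, Aplp1 (1.26, FDR 0.00944, or 0.66 without AL9, FDR 0.0109). Against LS edgeR called 0, while 5 had an unadjusted p under 0.05 and DESeq2 called 1. Here and in the lists below, counts by unadjusted p or DESeq2 have no share over all genes beside them and were not set against one.

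Around the serum amyloid A genes, 15 acute-phase genes of other families were tested. In AL against Ctrl 3 were called higher: the iron-siderophore binder Lcn2 (log2FC 1.67, FDR 0.016), the protease inhibitor Serpina3n (1.56, FDR 0.0317) and the lipopolysaccharide binding protein gene Lbp (1.31, FDR 0.00563, or 0.85 without AL9). The liver hormone gene Hamp (-4.38) and Crp (-4.35) were called lower. Serpina3n lost its call against Ctrl without AL7, AL9, Ctrl3, Ctrl5, Ctrl6 or Ctrl7 (FDR up to 0.119, with a log2FC of 0.85 without AL9). Against LS, Lcn2 (1.93, FDR 0.0298), Serpina3n (1.91, FDR 0.0452) and Lbp (1.21, FDR 0.0305) were called higher. Lcn2 lost that call without AL7 or any single LS mouse (FDR up to 0.0851), Lbp without AL1 or any single LS mouse (FDR up to 0.0928) and Serpina3n for 11 of the 20 mice (FDR up to 0.111). The metallothionein genes Mt2 (1.78, FDR 0.023) and Mt1 (1.01, FDR 0.0164) were called higher against LS too, and Mt1 lost its call without LS3 and Mt2 without LS1, LS3 or LS4 (FDR up to 0.0536 and 0.0667). The summed level of these acute-phase genes was highest in AL7, at 783 CPM, the mouse with the most Saa3, and 762 CPM in AL9. In AL7 most of that sum was Mt1 (335 CPM) and Mt2 (172 CPM). Serpina3n was at 61.0 CPM there and at 256 CPM in AL9. Of 22 inducers and receptors of serum amyloid A, 1 was called higher against Ctrl, the pattern receptor Tlr2 (0.70, FDR 0.00046), and 4 against LS: Fpr1 (2.98), Ager (1.46), Osmr (0.74) and Tlr2 (0.65). Hamp, Crp, Apoc4, Fpr1 and Ager averaged below 1 CPM and were named after their values were seen. Fpr1 (mean 0.166 CPM over all mice, FDR 0.0450 against LS) and Ager (0.195 CPM, FDR 0.0484) lay within the range of the detection floors. Osmr lost its call without AL1, AL7, LS1, LS2 or LS3 (FDR up to 0.101), and Tlr2 fell below the fold threshold without LS2.

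Of 9 receptors and partners of vitronectin, 0 were called by edgeR in either comparison, 3 had an unadjusted p under 0.05 against Ctrl and 2 against LS, and DESeq2 called 1 against Ctrl and 0 against LS, with medians of 0.28 against Ctrl and 0.13 against LS. Among 28 genes of basement membranes and heparan sulfate proteoglycans, the list of Hspg2, the heparanase gene Hpse was called higher against Ctrl (log2FC 0.93) and against LS (1.36), Agrn higher against LS (1.01) and Gpc6 lower against Ctrl (-0.84). Of 19 genes of other proteins reported in amyloid, Bgn, the proteoglycan biglycan, was higher against Ctrl (0.82, FDR 0.007) and against LS (0.96). Lysozyme Lyz2 was higher against Ctrl (0.61), while the liver transcripts Apoa2 (-4.43), Ttr (-3.58) and Apoa1 (-2.80) were lower there. Bgn fell below the fold threshold against Ctrl without AL9 (0.54), and Ttr and Apoa1 turned sign with the liver covariate. Ttr and Apoa1 are themselves in the liver list that the covariate averages, so part of this change was built in. Leaving out 1 mouse ended the call of Apoa1 for 16 of the 20 mice, and that of Lyz2 for AL1, AL7, AL9, Ctrl4, Ctrl5 and Ctrl7 (FDR up to 0.126 and 0.157, with 0.33 for Lyz2 without AL9).

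Of 17 tested genes of extracellular chaperones and clearance, 4 were called higher in AL against Ctrl. They were Lgals3, or galectin-3 (log2FC 1.83, FDR 0.000872), the adaptor of phagocyte receptors Tyrobp (0.75), the cathepsin gene Ctsz (0.68) and the complement inhibitor Serping1 (0.59). Tyrobp, Ctsz and Serping1 fell below the fold threshold without AL9, and Serping1 without AL1, AL6, Ctrl4 or Ctrl5 too. The median of this list was 0.48 and that of 15 macrophage genes 0.51, of which 4 were called higher, led by Gpnmb (2.32). Of 12 mesothelial genes, 9 were called higher against Ctrl and 6 against LS, Upk1b the most (2.35 and 2.44). Upk1b kept both calls with any 1 mouse left out. Lrrn4 lost its call against Ctrl without AL3, AL9, Ctrl1, Ctrl3 or Ctrl4 (FDR up to 0.127). Against LS, Bnc1, Msln, Krt19 and Upk3b each lost theirs without LS1, LS2 or LS4 (FDR up to 0.114). Krt19 also lost it without LS3, and Msln, Krt19 and Upk3b without AL5. In the other marker lists, no neutrophil, fibroblast, endothelial or adipocyte gene was called against Ctrl, where edgeR called 0 of 8, 12, 10 and 7 tested genes. Of these, 1, 0, 3 and 2 had an unadjusted p under 0.05, and DESeq2 called 1, 0, 0 and 0, counts that were not set against their share over all genes. Of 10 cardiomyocyte genes, 1 was called against Ctrl, Nppa, the atrial natriuretic peptide gene (2.72, higher), beside a list median of -0.05. In that list 2 genes were lower past the FDR but not the fold threshold. Of 11 pericyte and smooth muscle genes, with a median of 0.19, Acta2, smooth muscle actin (0.88), was called higher. Abcc9 of the same list, a potassium channel subunit (-0.84), was called lower. Acta2 lost its call without AL9 (FDR 0.0543), in the first run alone and without the mice above 50 CPM of Alb. Against LS, Nppa (1.14, FDR 0.191) and Acta2 (0.24, FDR 0.633) were not called. The cause of these marker differences, and their part in the members' values, was not tested.

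**Figure D5:**
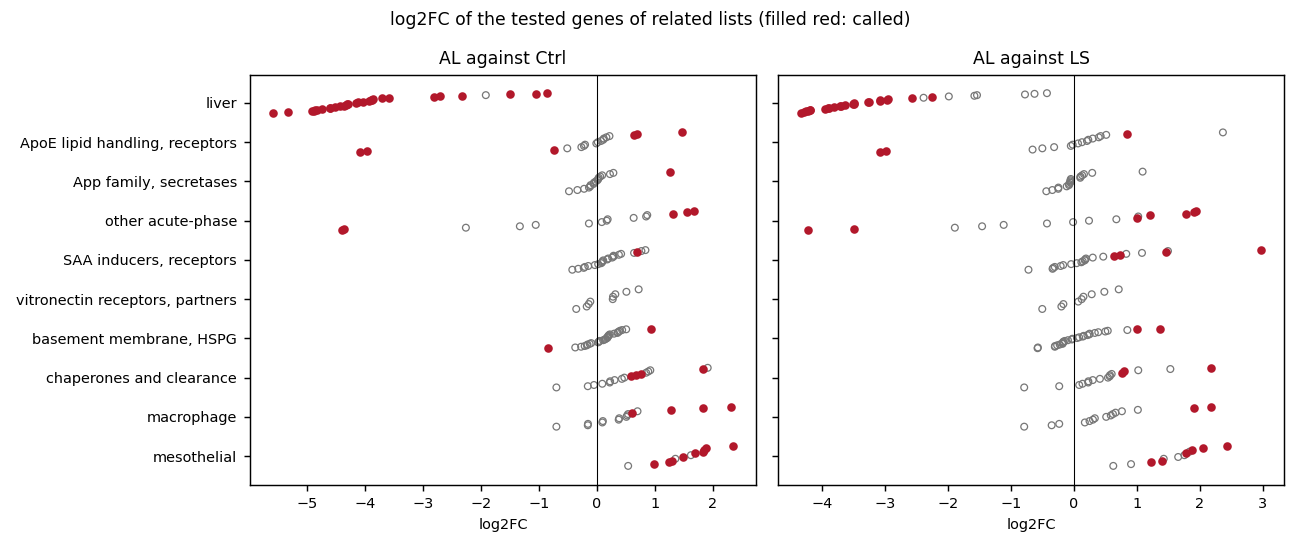
log2FC of each tested gene of 10 related lists in AL against Ctrl and AL against LS, with called genes in filled red. Liver genes lie to the left of 0 (medians -4.14 and -3.49) and mesothelial genes to the right (medians 1.55 and 1.71).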

How the data were processed

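RNA-seq of the heart apex was available for 9 AL, 4 LS and 7 Ctrl mice. Per the labels and the study's methods, the authors sequenced stranded poly(A) libraries in 2 runs, aligned reads to GRCm38 with STAR, and deposited estimated counts of Salmon (estimated count per gene, not whole) for 25308 genes, without normalization. Of the values, 14.2% were not whole, and all were rounded. Groups came from the sample labels, and runs from their batch label, since the methods name 2 sequencing runs. Genes were filtered with filterByExpr (minimum count 10), scaled by TMM and tested with glmQLFTest of edgeR 4.0.16 in R 4.3.3, with group and run as terms. FDR is the Benjamini-Hochberg value over 14477 genes, and SE comes from the F statistic. The liver covariate was the mean log2 CPM of the tested genes of the liver list in each mouse. Gene coordinates are from GENCODE M21 and upstream bases from RefSeq.

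The members and gene lists were chosen with earlier results of these data known. Genes named from lists were at most 5 per list, with the largest absolute log2FC among called genes of at least 1 CPM. For each tested member, the 3 genes of highest Pearson r of run-adjusted log2 CPM were named. Alternatives were RLE scaling, DESeq2 1.42.0, ComBat-seq (sva 3.50.0), no filter or a stricter one, no run term, single runs, Xist and liver covariates, a replicate block and each mouse left out. The second run alone was added after seeing the data. The scripts were tested on simulated data. Each library is a separately numbered mouse, and p-values measure the spread between these mice.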

Additional observations from a re-analysis of the deposited data

Results flagged for a closer look

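Among 30 sets of values (10 genes in 3 groups), 8 had an extreme mouse whose gap to the next was past the 95% limit of Dixon's test. The rate of 1 in 20 by chance holds for normally distributed values, and these are skewed, with many zeros. The 8 sets are therefore descriptions and were not set against that rate. AL9 had 520 CPM of Apoe (next AL mouse 183), 921 CPM of Clu (next 511) and 675 CPM of Hspg2 (next 347). AL7 had 23.0 CPM of Saa3 (next 5.68), and AL4 had 5.28 CPM of Apoa4 (next 2.25). AL6 had 0.0603 CPM of Apcs, from 3 counts, where all other AL mice had 0, so that any count above 0 would have passed the limit. AL8 had 0.237 CPM of Saa1 (next 0.0664), from 2 counts. Ctrl3 had 0.449 CPM of Apcs (next 0.183).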

How the results depend on the processing

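Over 985 recomputed values of the members' log2FC, 912 kept their direction and side of the threshold, 25 lost a call, 6 gained one and 42 turned sign. Members called in AL against Ctrl were 4 without the filter, 0 with at least 10 counts in every mouse (a filter that Saa1 and Saa3 do not pass), 1 with DESeq2, ComBat-seq, the first run alone, the liver covariate or without the 5 mice above 50 CPM of Alb (Saa3 in the first 2 of these, Saa1 in the first run and Clu in the last 2), and 0 with Xist as covariate or in the second run alone. Leaving out 1 mouse gave 1 to 3 (1 without AL7, AL9 or Ctrl3). In AL against LS they were 3 without the filter, 0 with the stricter one, 2 in the first run, 0 with Xist or without the Alb-rich mice, and 0 to 2 leaving out 1 mouse (0 without AL7 or LS3). Against LS and Ctrl merged they were 4 without the filter, 0 with the stricter one or Xist, and 1 with ComBat-seq, the liver covariate or without the Alb-rich mice. The 4 members without the filter are Saa1, Saa2, Saa3 and Apcs against Ctrl. With Xist, Saa3 and Saa1 against Ctrl were at 2.12 (FDR 0.195) and -2.49 (FDR 0.114). Over all alternatives their FDR ran from 0.00193 to 0.708 and from 0.0107 to 0.669.

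Mouse numbers were shared between groups by label only: of 15 same-numbered pairs 4 had a correlation over 0.1 (-0.228 to 0.293), and 3 of 18 mice were closest to a same-numbered mouse. With the replicate block, members called were 1 against Ctrl, 2 against LS and 1 against the merged group, Apoe was at -0.22 against Ctrl and -0.11 against the merged group, and Saa3 was at 0.43 against Ctrl.

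The cause of the sign changes was not tested. Apoe turned to -0.14 (Ctrl) and -0.026 (merged) in the first run, and leaving out 1 mouse gave -0.29 to 0.33 and -0.15 to 0.31. Hspg2 turned to 0.11 with the liver covariate, 0.16 without the Alb-rich mice and 0.34 in the second run (Ctrl), to 0.059 without run term and 0.067 with the liver covariate (LS), and to 0.089 and 0.067 with the covariate and without the Alb-rich mice (merged), with -0.26 to 0.0033 leaving out 1 mouse (Ctrl). Apoa4 turned to 3.26 and 1.97 (Ctrl) and to 4.99 and 3.33 (merged) with the covariate and without the Alb-rich mice, and ran from -2.03 to 0.042 leaving out 1 mouse (merged). In LS against Ctrl, Apoe turned to 0.044 and 0.079 with these, Vtn to 0.20 without run term, Hspg2 to 0.014 with Xist, 0.042 and 0.22 with these, App to 0.0019 with ComBat-seq and Saa1 to 0.032 with the covariate. Leaving out 1 mouse gave -0.33 to 0.060 for Apoe, -0.18 to 0.028 for Vtn, -0.11 to 0.12 for Hspg2, -0.15 to 0.0080 for App and -2.11 to 0.074 for Saa1. With the liver covariate, Hpd turned to 0.063, Apoc1 to 0.29 (Ctrl) and 0.37 (LS), Ttr to 0.18 and 0.23, and Apoa1 to 1.21. Hpd, Ttr and Apoa1, unlike Apoc1, are in the list that this covariate averages, so part of their change was built in. Of 2050 values of the 66 differences of list genes, 1755 kept call and direction and 289 lost the call. Few counts limit Saa1, Saa2 and Apcs, where single mice decide, and the second run has 5 shallow libraries.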
